A study of Mus musculus with 48 samples.

Results

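The cells described here were selected as GL261 tumor cells outside the cell cycle from the single-cell RNA counts of whole mouse tumors. A cell was taken if it had at least 500 genes detected, no UMI (a count of 1 captured RNA molecule) of Ptprc, which encodes the leukocyte antigen CD45, and none of Cldn5, an endothelial tight-junction gene. It also had to show at least 3 of the 10 genes Sox2, Ptprz1, Bcan, Fabp7, Nes, H19, Prph, Col9a2, Matn2 and Moxd1. Its UMIs of Mki67 and Top2a, genes of dividing cells, could sum to at most 1. These values chose the cells, so they are given as a description only. Of the 9172 cells of the whole-tumor mixture, 8726 had at least 500 genes, and 507 of these met the whole rule. Both data sets of the series together hold 14896 cells.

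GL261 is a mouse glioma line, and it was implanted into the brains of C57BL/6 mice after receiving a short hairpin RNA. The hairpin was a negative control in the shNC group and was directed at Selp, the gene of the adhesion molecule P-selectin, in the shSELP group. The tumors of this mixture are labelled day 16, while the study's methods give day 17 after injection, male mice of 6 weeks and a pool of 3 brains per group. CD11b+ cells, CD45+ cells without CD11b, and the remaining cells had been mixed in equal amounts before capture, so each share of cells below is a share of the mixture and not of a tumor. Each group has 2 libraries, called shNC 1, shNC 2, shSELP 1 and shSELP 2. Whether a group's libraries stem from separate pools of brains is not stated. The tests therefore measure the spread between libraries, which may be technical only. The study's methods describe a random draw of equal numbers per group from cells of at least 500 genes. As 446 of the deposited cells had fewer, the deposited table may not be that draw.

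Gliomas are brain tumors whose cells keep many genes of neural and glial progenitors active, among them the transcription factor Sox2. At any time many tumor cells are not dividing, and such cells can take up programs of low oxygen, of the interferon response or of wound repair. P-selectin is known from activated platelets and endothelium, where it holds leukocytes by binding PSGL-1, the product of Selplg.

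The selected cells numbered 212 in shNC 1, 161 in shNC 2, 68 in shSELP 1 and 66 in shSELP 2. As shares of the cells with at least 500 genes these were 9.71% (exact 95% binomial interval 8.50 to 11) and 7.39% (6.33 to 8.57) in shNC, against 3.11% (2.42 to 3.92) and 3.04% (2.36 to 3.85) in shSELP. The groups did not overlap, with means of 8.55% (SD 1.64, n = 2) and 3.07% (SD 0.0489, n = 2). An exact two-sided permutation test over libraries gave p = 0.333, the smallest that 2 against 2 libraries allow. Near the marker threshold, 124 cells without Ptprc and Cldn5 had 3 of the 10 markers, 101 of them selected, and 173 cells had 2 markers and stayed outside. By library the 101 cells were 16 of the 212 and 27 of the 161 selected in shNC. In shSELP they were 24 of the 68 and 34 of the 66. Near the division threshold, 392 selected cells had no UMI of Mki67 and Top2a, 115 had 1, and 53 cells just outside had 2.

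The libraries differed in depth. The selected cells held 3101854 and 2477274 UMIs in shNC 1 and 2, and 802563 and 624401 in shSELP 1 and 2. A gene without a UMI could therefore reach 0.967, 1.21, 3.74 and 4.80 CPM (UMIs scaled to a common total per library) in the 4 libraries, the level of 3 UMIs. The median cell had 14980.5, 16269, 11016.5 and 5888 UMIs. Cells under 5000 UMIs made up 32 of the 66 selected in shSELP 2, against 19, 18 and 13 in the other libraries. The doublet score marked none of the 507 cells, and none shared its barcode with another library.

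Selp, the hairpin's target, gave 1, 1, 0 and 1 UMI in the selected cells of shNC 1, shNC 2, shSELP 1 and shSELP 2. A difference between the groups was not detectable at this depth, and Selp was filtered out as too low before testing. Dividing tumor cells, defined by the same markers and at least 2 UMIs of Mki67 and Top2a, gave no Selp UMI in any library. Cells with Ptprc gave 6, 12, 21 and 16. Selplg, whose product P-selectin binds, had 3.87 and 2.02 in shNC 1 and 2 and 3.74 and 6.41 in shSELP 1 and 2 (CPM), and the libraries of the groups overlapped. Among 5 tested genes of P-selectin ligands and their glycosylation, edgeR called none. B4galt1, a galactosyltransferase, had 14.5 and 14.5 in shNC 1 and 2 and 29.9 and 30.4 in shSELP 1 and 2 (log2 fold change 0.95, SE 0.274), with an adjusted p of 0.153 by edgeR's quasi-likelihood test with Benjamini-Hochberg adjustment. It was higher in both shSELP libraries than in either shNC library without passing the test.

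The data go against the label of tumor cells for some of the selected cells, more of them in shSELP. The hosts were male, and the RNA of the Y-linked genes Ddx3y, Eif2s3y, Kdm5d and Uty reached 175, 158, 212 and 194 CPM in cells with Ptprc. Dividing tumor cells had 4 Y-linked UMIs of 2975914 in all libraries together. The selected cells had 2.90 and 8.88 CPM in shNC and 76.0 and 72.1 CPM in shSELP, carried by 4, 8, 18 and 13 cells. H19, an imprinted non-coding RNA, or Prph, a neuronal filament gene, was detected in 96.7, 88.8, 72.1 and 75.8% of the selected cells. Cells with Ptprc, where free RNA can give such UMIs, had them in 19.5, 18.5, 6.31 and 16.5% of cells, at median depths of 9579, 8438, 7768.5 and 12142 UMIs. The shSELP libraries thus stand apart in Y-linked RNA. H19 and Prph are genes of the rule, and fewer UMIs per cell lower their detection, so their shares only describe the cells.

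For this reason the comparisons of expression were also run on a smaller set, though not every gene named below has its value there printed. The share of cells is not given for it. This set, the selected cells with H19 or Prph and without any Y-linked UMI, is here called the restricted cells. They numbered 201, 138, 43 and 44, with 2985060, 2197487, 517001 and 366065 UMIs. This restriction was chosen after the data had been seen. It uses H19 and Prph of the rule, so its levels of these genes are a description.

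Expression summed by chromosome gave a second description of the same cells. In the restricted cells, genes of chromosome 10 had median log2 ratios of 0.73, 0.76, 0.79 and 0.88 over the cells with Ptprc of the same library, and genes of the X chromosome 0.68, 0.63, 0.79 and 0.90. Chromosome 15 was similarly high at 0.75, 0.71, 0.77 and 0.73. Chromosome 19 was low at -0.30, -0.22, -0.15 and 0.07. The SD over 20 chromosomes was 0.255, 0.258, 0.250 and 0.231, near that of the dividing tumor cells (0.250, 0.260, 0.279 and 0.269). The selected cells outside the restricted set had a flatter profile in shSELP, with SDs of 0.209 and 0.169 in shNC and 0.0896 and 0.0876 in shSELP. Such a profile holds gene regulation and gene dosage alike, and copy number was not called.

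**Figure D1:**
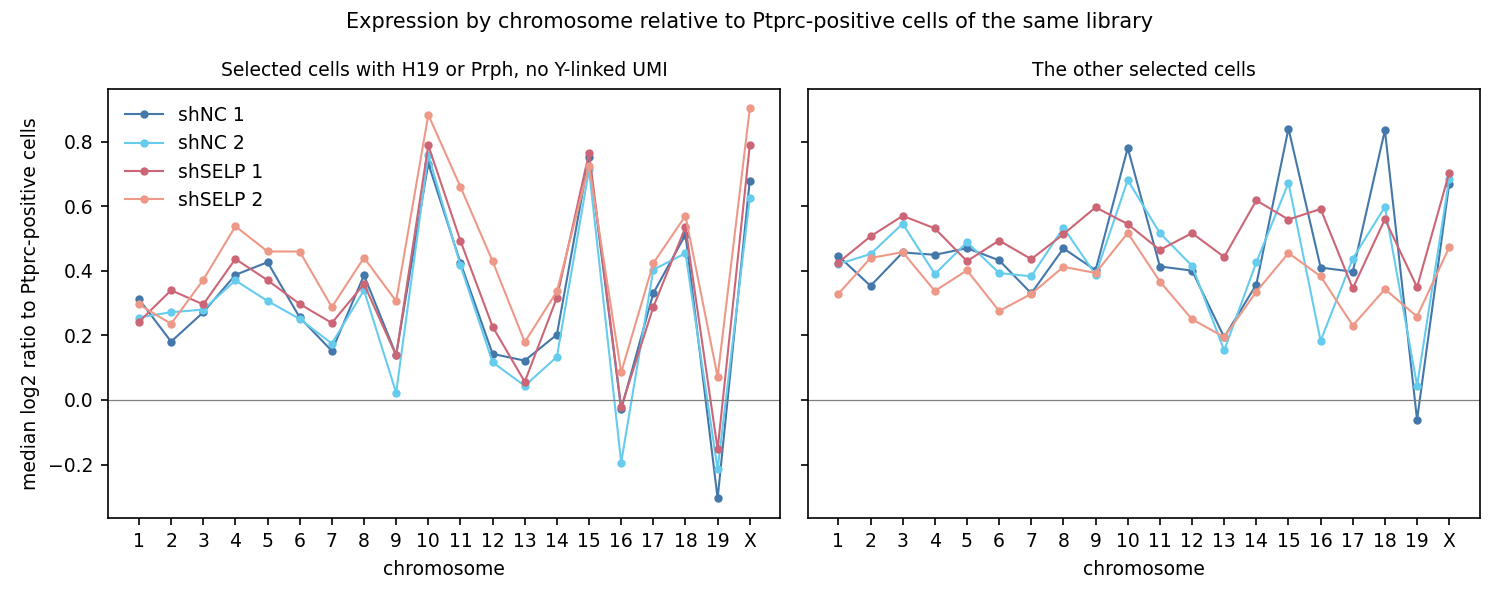
Median log2 ratio of CPM over cells with Ptprc (y axis) for each chromosome (x axis), for the restricted cells and the other selected cells of the 4 libraries. Chromosomes 10, 15 and X stand high in the restricted cells of every library.

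By mean CPM over the libraries, the selected cells gave most RNA to Malat1, a nuclear non-coding RNA (11079), Tpt1 (10506), Rpl37 (8561), Rps20 (7378), Eef1a1 (7156), Rpl23 (6598), Rps4x (6070.0), Cxcl10 (6032) and Rps27a (5494). Cxcl10, a chemokine induced by interferon, is the only secreted signal among these. Against all other cells of the same library, the largest median log2 ratios among well-measured genes belonged to Serpina3n, an acute-phase protease inhibitor (3.90), Bcas1 (3.77), Matn2 (3.76), Moxd1 (3.74) and S100b, a glial calcium-binding protein (3.61). Apol9a (3.51), Gjc3, a connexin of myelinating glia (3.49), Cp, which encodes ceruloplasmin (3.46), Jam3 (3.42), Cyr61 (3.41), Tubb2b (3.40), Pet2 (3.36), Syt4 (3.36), Col9a2 (3.35) and Cryab, a small heat-shock protein (3.35), followed. These ratios describe the selection and were not tested.

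Sox2 was detected in 77.4, 75.2, 52.9 and 45.5% of the selected cells and in 2.54, 1.90, 0.508 and 1.64% of cells with Ptprc. Its level was 229.5 and 195 in shNC 1 and 2 and 148 and 175 in shSELP 1 and 2 (CPM). H19 was more uneven, at 964 and 478 in shNC 1 and 2 and 113 and 298 in shSELP 1 and 2. In shSELP 1, 65 of its 91 UMIs lay in 5 cells, and in shSELP 2 178 of 186 did. Ptprz1, a receptor phosphatase of glial progenitors, had 97.4 and 79.9 in shNC 1 and 2 and 223 and 160.2 in shSELP 1 and 2, and in the restricted cells 98.5 and 54.6 in shNC 1 and 2 and 83.2 and 62.8 in shSELP 1 and 2. The groups were apart over all selected cells and overlapped in the restricted cells.

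Clustering the selected cells by their expression gave 8 groups, described here by leading genes and with no test, since the same genes made the groups. Group 2 was the largest with 148 cells (86, 46, 9 and 7 by library) and was led by Col9a1, a cartilage-type collagen, Olig1 and Olig2, transcription factors of glial progenitors, and Mcm6, a replication gene. In it 37 of 43 S phase genes were higher than in the other selected cells. Group 3, with 121 cells (29, 65, 14 and 13), was led by Ccl5, Apoc1, Sdc4, Enpp2 and Cp. All 30 genes of interferon response and antigen presentation were higher there, with 30756 CPM in sum against 17039 in the other selected cells, as were 27 of 33 acute-phase and NF-kB target genes (12385 against 4956). Group 3 had no Y-linked UMI and group 2 had 1.

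Group 1 joined 49 cells led by Slc2a1, the glucose transporter GLUT1, Lgals3, Car9, a carbonic anhydrase induced by low oxygen, and Ero1l. Of these cells 43 came from shNC 1, 5 from shNC 2, 1 from shSELP 1 and 0 from shSELP 2. Hypoxia and glycolysis genes summed to 15243 CPM in it against 4831 in the other selected cells, and 23 of 24 were higher, with a median log2 ratio of 1.27. None of the 30 interferon and antigen presentation genes was higher in it (9157 against 22631 CPM). The promoters of Car9 and Slc2a1 are shown because they hold ACGTG, the core letters of the hypoxia response element, marked in capitals. The letters were searched on both strands, as ACGTG or CACGT, in windows of 300 bases, from 250 before to 50 after each gene start, taken from RefSeq (GRCm38.p6). They occur in 6447 of 32851 promoters (19.6%). Of the 24 genes of the list 22 were matched, and 18 of their 29 promoters (62.1%) hold the letters. A match describes letters only. Car9 lies at chr4:43506776-43507075 and Slc2a1 at chr4:119108495-119108794, both on the plus strand.
Car9: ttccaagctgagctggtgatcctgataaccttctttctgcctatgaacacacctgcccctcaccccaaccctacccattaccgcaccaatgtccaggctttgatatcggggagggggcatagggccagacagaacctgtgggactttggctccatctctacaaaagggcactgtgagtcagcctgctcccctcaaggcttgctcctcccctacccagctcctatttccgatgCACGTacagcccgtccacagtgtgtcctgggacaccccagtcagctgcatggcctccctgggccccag
Slc2a1: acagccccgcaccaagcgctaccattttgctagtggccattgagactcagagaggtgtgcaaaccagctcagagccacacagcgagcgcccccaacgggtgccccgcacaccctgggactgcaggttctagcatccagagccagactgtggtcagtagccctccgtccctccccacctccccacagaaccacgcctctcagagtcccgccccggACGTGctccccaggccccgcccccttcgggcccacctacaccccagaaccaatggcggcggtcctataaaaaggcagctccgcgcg

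The remaining 5 groups were smaller or mixed. Group 7, with 64 cells (12, 22, 11 and 19), was led by C1qa, a complement gene of macrophages, and by Rrm2, Pclaf, Birc5 and Cdk1, genes of dividing cells. Its cells were shallow, with a median of 2579.5 UMIs, and 49 of 54 G2/M genes were higher in it than in the other selected cells. The division threshold of the rule thus let through cells with RNA of the cell cycle. In group 7, 13 of 14 macrophage markers were higher as well, at 4539 against 1821 CPM in sum. Of its 64 cells, 55 are restricted cells. Group 5, with 56 cells (9, 13, 15 and 19), was led by Ttr, Chchd10, Csn3, Nupr1 and Tinagl1. Markers of mural cells (664 against 29.8 CPM) and fibroblasts (994 against 260.1) were higher in it than in the other selected cells. Ependymal and choroid plexus markers were highest, at 19469 against 231 CPM, most from Ttr. A Y-linked UMI was found in 8 of its cells, and 44 of the 56 are restricted cells. Group 4, with 46 cells (32, 4, 7 and 3), was led by Tnr, Rtn1, Lhfpl3, Sirt2 and Gap43, genes of glial precursors and axons. All 7 oligodendrocyte precursor markers were higher there, and 10 of its cells carried a Y-linked UMI.

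Groups 8 and 6 stood apart from the other groups in Y-linked RNA and in their chromosome profile. Group 8 had 17 cells (0, 5, 8 and 4), led by Klk6, Car2, Apod, Mgp and Gsn, with 15372 CPM of oligodendrocyte markers and 4614 CPM of fibroblast markers. A Y-linked UMI was found in 15 of the 17. Group 6 had 6 cells (1, 1, 3 and 1), led by Nnat, Tmem212, Ccdc153 and Dynlrb2, with 7635 CPM of ependymal markers and 193 CPM of Y-linked RNA. Over 20 chromosomes, the profile of these groups correlated with that of the dividing tumor cells at r = 0.0364 for group 6 and 0.0721 for group 8, against 0.905 to 0.959 for the other 6. The chromosomes share the cells and their depth, and no test was made. The restricted set holds no cell of groups 6 and 8.

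**Figure D2:**
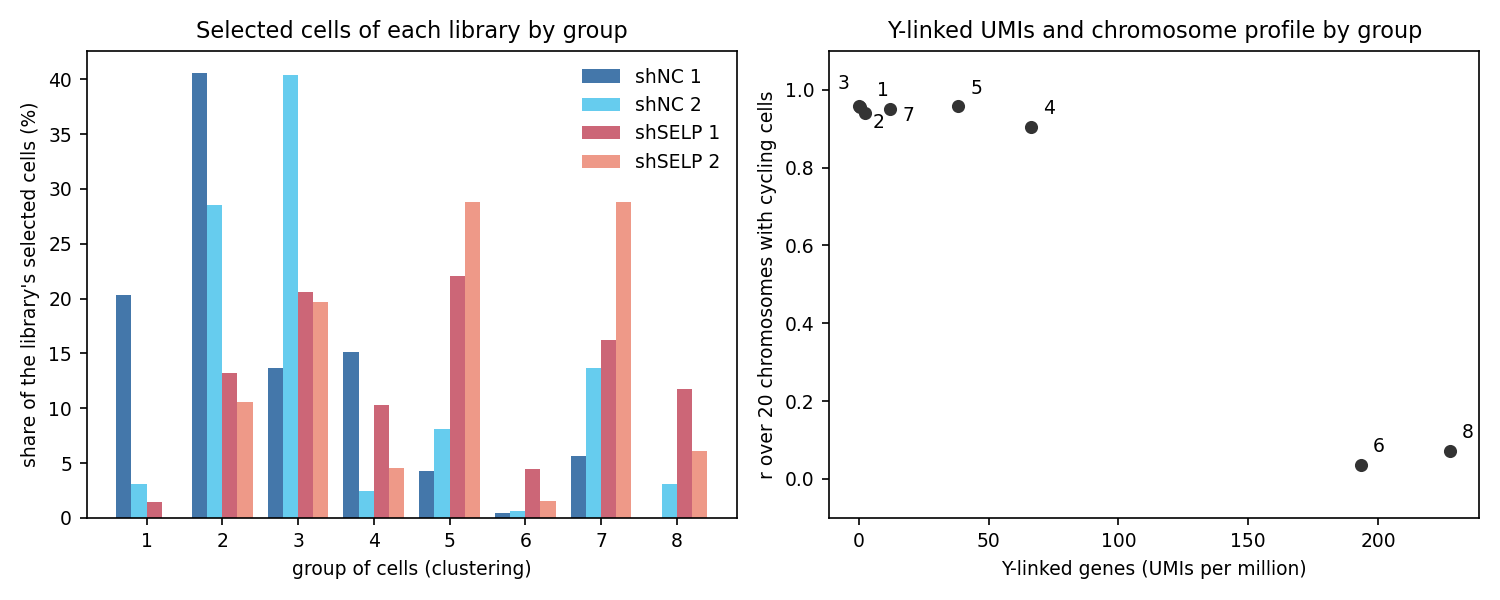
Left, the percentage of each library's selected cells (y axis) in the 8 groups of cells (x axis), with 1 bar per library. Right, Y-linked CPM of each group against the correlation of its chromosome profile with that of dividing tumor cells, where groups 6 and 8 stand apart.

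Several marker lists of other cell types differed between the libraries of the selected cells. All 8 oligodendrocyte markers had UMIs in each library and summed to 377, 1050.4, 1562 and 4777 CPM. Mural cell markers summed to 21.6, 16.1, 141 and 698 CPM, with 4 of 8 detected in each shNC library and 8 of 8 in each shSELP library. A few cells carried much of this. In 3 cells lay 77 of the 113 mural UMIs of shSELP 1 and 427 of the 436 of shSELP 2. So did 2167 of the 2983 oligodendrocyte UMIs of shSELP 2. Vtn, Kcnj8, Abcc9 and Higd1b were at 0 in shNC 1, and Rgs5 was the most abundant in shSELP 2. Fibroblast markers, most from Col3a1 and Dcn, summed to 361, 77.9, 1053 and 289.9 CPM. Astrocyte markers, with S100b on top, summed to 494, 588, 1040.4 and 810.4 CPM. Both shSELP libraries lay above both shNC libraries in the oligodendrocyte, mural and astrocyte lists, while the fibroblast list overlapped between the groups. So did microglia markers (112, 117, 131 and 106 CPM) and endothelial markers (581, 1033, 689 and 673 CPM). Ly6c1 gave most of the endothelial UMIs, 1656 of 1803, 2496 of 2560, 482 of 553 and 345 of 420. Tek was at 0 in each library, as was Cldn5, which the rule excludes.

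Neuron markers, most from Meg3 in shSELP, summed to 11.9, 7.27, 168 and 135 CPM, and the defining neuron gene Rbfox3 was at 0 in all 4 libraries. Neuroblast markers, most from Cd24a, summed to 13.5, 8.07, 109.6 and 48.0 CPM, with Dlx2, Dlx5 and Sp9 at 0 in each library. Ependymal and choroid plexus markers summed to 42.2, 128, 18149 and 251 CPM, and in shSELP 1 Ttr made up 14147 UMIs, with 13583 UMIs of the list in 3 cells. Macrophage markers, most from Cd74, summed to 1422, 2246, 2148 and 3165 CPM against at least 32694 in cells with Ptprc. Neutrophil markers had 136 CPM in shSELP 2, with all 85 UMIs in at most 3 cells, against 487 CPM in its cells with Ptprc and at most 2.49 CPM in the selected cells of the other libraries. The part of these cells in the results below was not tested. Many of these results, though not each of them, are also given for the restricted cells. There the oligodendrocyte, mural, fibroblast and neuron lists summed to at most 613, 19.3, 156 and 15.5 CPM. Other lists still differed in the restricted cells. Ependymal and choroid plexus markers had 21.8, 93.7, 3412 and 123 CPM there. Macrophage markers had 1359.8, 2248, 3128 and 3739.8 CPM, with 8 of 8 tested genes higher in shSELP and none called by edgeR.

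The comparison of shSELP with shNC asked which genes differ in the selected cells when the implanted line carries the Selp hairpin. Most of the called genes were under 10 CPM in shNC. edgeR's quasi-likelihood test on UMIs summed per library called 142 of 10072 tested genes at a Benjamini-Hochberg adjusted p under 0.05 (1.41%), 136 of them higher (1.35%) and 6 lower (0.0596%). Where no tool is named below, a gene called or not called is meant by edgeR. Where the groups are said to lie apart or not to overlap, this describes the named genes only. The share of all tested genes that do so is not given. The unadjusted p was under 0.05 for 1711 genes (17%). The balance of directions varied between fits, with 963 higher and 333 lower without the filter on low counts, 250 and 38 by DESeq2, and 127 and 50 without shNC 2. DESeq2 gave a p for 17103 genes, left 4974 without an adjusted p, and called 288, among them 128 of the 142. On cell means limma-trend called 0, with 1213 genes at an unadjusted p under 0.05. Of the 142 genes, 111 had a shNC mean under 10 CPM, and those near 0 in shNC pass the filter through their level in shSELP. Bcan, 1 of the 142, is a gene of the rule.

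Meg3, an imprinted non-coding RNA, was at 3.22 and 2.02 in shNC 1 and 2 and 141 and 122 in shSELP 1 and 2 (CPM) and rose by a log2 fold change of 5.48 (SE 0.296, adjusted p 0.00412). Both shSELP libraries lay above both shNC libraries, yet the restricted cells had 0, 0, 0 and 2.73. Apoe, which encodes the lipid carrier apolipoprotein E, had 120.3 and 168 in shNC 1 and 2 and 1235 and 1203 in shSELP 1 and 2 and rose by 2.98 (SE 0.218, adjusted p 0.00698). In the restricted cells Apoe had 118 and 76.9 in shNC 1 and 2 and 145 and 199 in shSELP 1 and 2, apart by group but not called (log2 fold change 0.72, adjusted p 0.456). Aqp4, the water channel of astrocytes, had 0.322 and 1.61 in shNC 1 and 2 and 67.3 and 78.5 in shSELP 1 and 2, and not 1 UMI in the restricted cells. Rtn1, Lhfpl3, Lsamp and Rnd2, genes of neurons and glial precursors, rose by 3.97, 3.47, 4.10 and 2.24. Rnd2 had a log2 fold change of -0.45 in the restricted cells and lost its call over all selected cells without shNC 1 (adjusted p 0.0647).

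Ccl7, a chemokine that draws monocytes, had 5.80 and 4.44 in shNC 1 and 2 and 99.7 and 84.9 in shSELP 1 and 2 (log2 fold change 4.04, SE 0.278, adjusted p 0.00693). Both groups were apart, but in the restricted cells the values 3.35, 2.73, 1.93 and 10.9 overlapped. Pdgfrb, a receptor of mural cells, had 0.967 and 0.404 in shNC 1 and 2 and 38.6 and 28.8 in shSELP 1 and 2, and Igfbp3 1.29 and 1.21 in shNC 1 and 2 and 34.9 and 46.4 in shSELP 1 and 2. Neither had a UMI in the restricted cells of shSELP. Hpgd, Epas1, Alpl and Pla2g7 were also among the 15 higher genes of smallest p, with 54.3, 38.7, 73.9 and 71.2 CPM in the mean of shSELP and at most 3.67 in that of shNC. Cxcl12, a chemokine of stromal and vessel cells, had no UMI in shNC and 74 in shSELP, at least 96.4-fold higher against a floor of 3 UMIs over the group. Its call was lost without shNC 1 (adjusted p 0.0985), and without shSELP 1 it fell under the filter.

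Only 35 of the 142 genes had enough UMIs to be tested in the restricted cells, and 29 had none there. Over these 35 the median log2 fold change was 2.09 in all selected cells and 0.24 in the restricted cells, where 26 kept the direction, 9 did not, and 1 was called. An unadjusted p under 0.05 was found there for 14 of the 35, each in the same direction. The 35 were chosen in a set that contains the restricted cells, so such agreement is expected and shows no more than that. Of 62 tested genes in marker lists of other cell types 12 were called (19.4%), beside 1.41% of all tested genes. Marker genes near 0 in shNC, such as Pdgfrb, are tested only through their level in shSELP. This raises the share beforehand, so it is a description. The number called also turned on single libraries, being 29 without shNC 1, 177 without shNC 2, 94 without shSELP 1 and 212 without shSELP 2, with 20 genes called in all 4 of these fits. Each fit with a library left out has 1 library in 1 group, so its spread comes from the other group alone. A limit planned beforehand, of 1% of a cell's UMIs in leukocyte, endothelial, mural, fibroblast and red blood cell markers, kept 207, 156, 63 and 57 cells and gave 143 calls, 133 higher and 10 lower. Y-linked RNA was still at 73.0 and 64.4 CPM in shSELP under this limit. Without any cell holding a Y-linked UMI, a choice made after seeing the data, the number was 4.

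**Figure D3:**
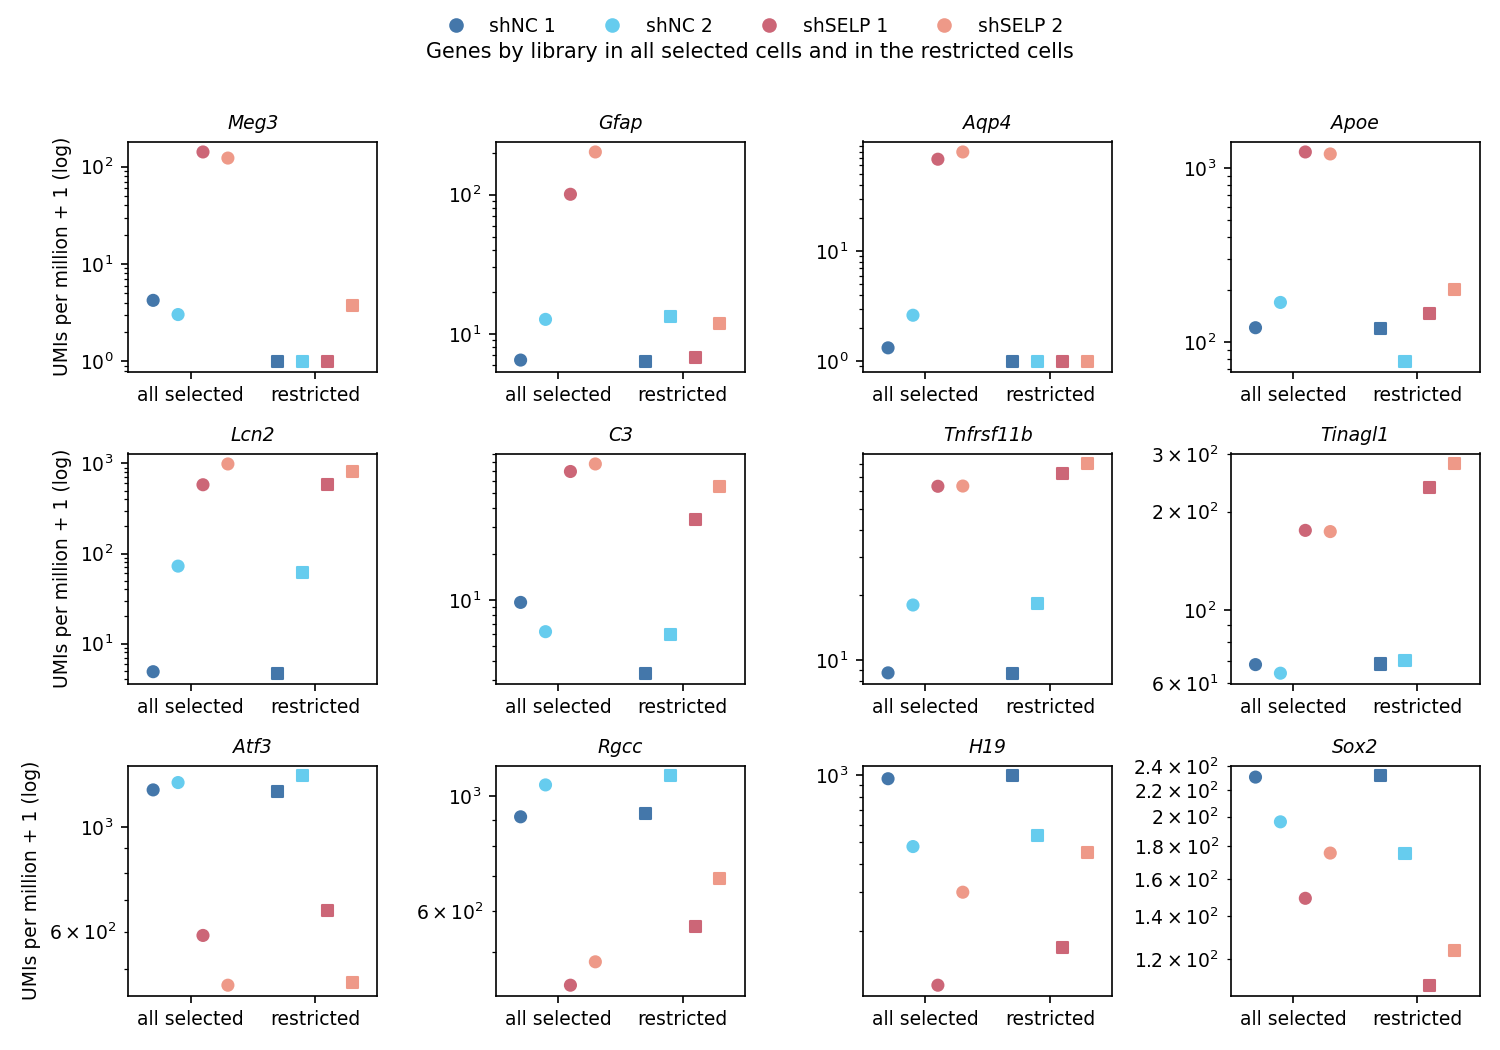
CPM plus 1 on a log axis (y axis) of 12 genes in each library, over all selected cells and over the restricted cells (x axis), with 1 point per library. Meg3, Aqp4 and Gfap part by group over all selected cells and not in the restricted cells, while Tinagl1 and Lcn2 part in both.

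In the restricted cells edgeR called 1 gene among 9017 tested (0.0111%), with Benjamini-Hochberg adjustment. It was Tinagl1, which encodes a secreted matrix protein, named here after its values were seen. By edgeR 875 genes (9.7%) had an unadjusted p under 0.05. DESeq2 gave a p for 15744 genes in these cells, left 11599 without an adjusted p, and called 17. Tinagl1 had 67.7 and 69.2 in shNC 1 and 2 and 236 and 279 in shSELP 1 and 2 (CPM) and rose by a log2 fold change of 1.83 (SE 0.201, adjusted p 0.0418), higher in both shSELP libraries. Its groups did not overlap, and with each library left out in turn its log2 fold change was 1.82, 1.79, 1.92 and 1.76. Over all selected cells Tinagl1 had 67.4 and 63.4 in shNC 1 and 2 and 174 and 173 in shSELP 1 and 2 (log2 fold change 1.31, adjusted p 0.0358), and there the call was lost without shNC 1, shNC 2 or shSELP 1 (0.144, 0.0813 and 0.0971). Group 5, which Tinagl1 and Csn3 help to lead, holds 4.25, 8.07, 22.1 and 28.8% of the selected cells of the 4 libraries, and its part in the call was not tested. Restricted cells of at least 5000 UMIs gave an adjusted p of 0.0959.

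In dividing tumor cells, compared between the groups in the same way, 213 of 6747 genes were called (3.16%), 119 higher and 94 lower. They showed the same direction for Tinagl1, with 77.9, 83.3, 297 and 467 CPM (log2 fold change 2.24, SE 0.244, adjusted p 0.00137 by edgeR). Cells with Ptprc had 1.77, 4.81, 4.48 and 9.22 CPM. Mural cell markers, which share group 5 with Tinagl1, summed to 6.70, 17.7, 19.3 and 19.1 CPM in the restricted cells. Ependymal and choroid plexus markers, whose gene Ttr also leads group 5, summed to 21.8, 93.7, 3412 and 123 CPM there, higher in both shSELP libraries. Their part in the call was not tested. The number of genes called in the restricted cells was 55 without shNC 1, 308 without shNC 2, 9 without shSELP 1 and 4 without shSELP 2. Further genes with small p that edgeR did not call, also named after their values were seen, include Csn3 (19.1, 29.6, 143 and 76.5 CPM), C1s1, a complement protease (23.1, 30.9, 83.2 and 134 CPM), Cox6a2 (7.71, 14.6, 50.3 and 76.5 CPM) and, lower in shSELP, Tcim (537, 260.3, 92.8 and 117 CPM) and Gm13889 (191, 102, 19.3 and 19.1 CPM). Each of these 5 lay apart by group and was called by DESeq2 (adjusted p at most 0.00493).

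The 6 genes that fell over all selected cells kept their direction in the restricted cells, where edgeR called none and DESeq2 called Atf3 (adjusted p 0.00610). Atf3, a stress-induced transcription factor, had 1196 and 1240.1 in shNC 1 and 2 and 588 and 461 in shSELP 1 and 2 (CPM) and fell by 1.31 on the log2 scale (SE 0.201, adjusted p 0.0405, edgeR). In the restricted cells Atf3 had 1188, 1281, 665 and 467 (log2 fold change -1.19, adjusted p 0.334). The groups did not overlap in either set. Rgcc, a cell-cycle regulator linked to complement, had 912 and 1052 in shNC 1 and 2 and 429.9 and 477 in shSELP 1 and 2 and a log2 fold change of -1.21, with -0.77 in the restricted cells. Wee1, the kinase that holds back entry into mitosis, had 77.4 and 59.7 in shNC 1 and 2 and 17.4 and 25.6 in shSELP 1 and 2 (-1.80, and -1.44 in the restricted cells). Hist1h1e, a linker histone, had 45.5 and 42.8 in shNC 1 and 2 and 9.97 and 14.4 in shSELP 1 and 2 (-1.98, and -1.78).

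Arid5a, which encodes an RNA-binding protein of inflammatory transcripts, and Enc1, a gene of neural development, had log2 fold changes of -1.27 and -1.44, and of -1.03 and -1.10 in the restricted cells. All 6 lay apart by group in both sets of cells. They were called in a set that contains the restricted cells, so this is a description only. Each call was lost with at least 2 of the 4 libraries, left out in turn. Without shNC 1 the adjusted p was 0.0669 for Rgcc, 0.0806 for Atf3, 0.154 for Hist1h1e, 0.119 for Arid5a, 0.211 for Enc1 and 0.202 for Wee1. Without shSELP 1 these were 0.236, 0.128, 0.142, 0.175, 0.185 and 0.189. Without shSELP 2 the call of each but Hist1h1e was lost, at 0.129 for Rgcc, 0.180 for Atf3, 0.104 for Arid5a, 0.0914 for Enc1 and 0.0534 for Wee1, and Arid5a lost it without shNC 2 as well (0.0946).

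Gene lists of tumor programs are described by the genes called, the genes at an unadjusted p under 0.05 and the median log2 fold change, beside a median of 0.00 over all genes tested in the selected cells and -0.02 in the restricted cells. At an unadjusted p under 0.05, 10.7% of all tested genes were higher and 6.25% lower in the selected cells, and 4.69% and 5.01% in the restricted cells. In the restricted cells edgeR called no list gene, and DESeq2 called Tnfrsf11b as higher and Tcf12, Tnfaip3, Atf3, Zfp36 and Gadd45g as lower. The list gene C3 got no adjusted p from DESeq2 there (unadjusted p 4.9e-07), so DESeq2 did not decide on it. DESeq2 over all selected cells also called list genes that edgeR did not, Sox9, Slc1a3, Cst3, Stmn2, Bgn, Cdh11, Col4a1, Steap4, Serping1, Btg2, Cd24a, Ptn, Lrp1 and Tubb4b as higher and Tcf12 and Tnfaip3 as lower, beside Col9a2 of the rule. The counts of calls per list below are edgeR's, beside 1.35% of all tested genes called as higher and 0.0596% as lower. Genes near 0 in shNC are tested through their level in shSELP, so these counts are descriptions. With 1 library left out in turn, the median kept its sign in both sets of cells for 5 of the 19 lists, those of progenitor and astroglial, immediate early, unfolded protein and amino acid stress, P-selectin ligand and S phase genes. Genes of the rule stand in 6 of the lists and enter their medians unless stated. Neural progenitor transcription factors leaned lower in the restricted cells. Without Sox2, a gene of the rule, 17 of 21 tested were lower in shSELP and 9 of these had an unadjusted p under 0.05, with a median of -0.63. Oligodendrocyte precursor markers, which share Olig1 and Olig2 with the transcription factors, had 872, 519, 503 and 385 CPM in these cells. Of their tested genes, 4 of 6 were lower and 2 higher. Their part was not tested. With Sox2 included, leaving out 1 library at a time moved the median of the transcription factors between -0.93 (without shNC 2) and -0.46 (without shNC 1). Over all selected cells the median was -0.31 (-0.10 without Sox2), turning to 0.11 without shNC 1, and Id2, an inhibitor of differentiation, was called as higher (log2 fold change 1.81, adjusted p 0.0149, and 0.0806 without shNC 1).

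Within this list Sox11 had 31.5, 14.1, 3.87 and 0 CPM in the restricted cells, and Sox4 464, 524, 358 and 311. Tcf12, a partner of proneural factors, had 386, 204, 118 and 117 (-1.41, SE 0.325), and Sox6 220.1, 147, 112 and 84.7. These 4 genes were lower in each shSELP library than in either shNC library, and edgeR called none. This only describes the 4 genes, as the share of all tested genes that lie apart is not given. Olig2 (119, 63.7, 61.9 and 24.6) and Pou3f3 (40.9, 33.7, 13.5 and 24.6) lay apart by group too, whereas Olig1 (428, 229, 271 and 76.5) overlapped. Sox9 had 5.48, 3.63, 239 and 40 CPM over all selected cells and not 1 UMI in the restricted cells.

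Progenitor and astroglial genes had a median of 1.01 over all selected cells and of -0.20 in the restricted cells. Without the 4 genes of the rule in this list, Ptprz1, Bcan, Fabp7 and Nes, these were 0.90 and -0.20, with 2 of 14 called as higher. The 2 were Gfap, the filament of astrocytes, and Clu, a secreted chaperone. Gfap had 5.48 and 11.7 in shNC 1 and 2 and 99.7 and 202 CPM in shSELP 1 and 2 (log2 fold change 4.05, adjusted p 0.0186), but 5.36, 12.3, 5.80 and 10.9 in the restricted cells, where its log2 fold change turned to -0.16. Clu went from 1.05 to 0.06. Astrocyte markers moved the same way, as given above, but Gfap, Slc1a3 and Aldoc stand in both lists. The Gfap call was lost without shNC 1 (0.0760), and that of Clu with any 1 library left out (adjusted p from 0.0783 to 0.223). Slc1a3 (25.5, 14.9, 176 and 64.1 CPM, and 23.1, 12.3, 5.80 and 0 in the restricted cells), a glutamate transporter, was not called by edgeR in either set.

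Of neuronal cytoskeleton and axon genes, 1 of 16 was called as higher, Gap43, a growth cone protein, with 16.4 and 8.88 in shNC 1 and 2 and 79.7 and 60.9 CPM in shSELP 1 and 2. Its groups were apart (log2 fold change 2.35, adjusted p 0.0410), but in the restricted cells the log2 fold change was -0.65. The call of Gap43 was lost without shNC 1 (0.0565) and without shSELP 1 (0.125). The list's median was 0.25, and -0.31 in the restricted cells. Cartilage-type matrix genes had none called among 11 by edgeR and a median of -0.33 (-0.39 in the restricted cells), which became 0.08 and -0.01 without shNC 1. Left without Col9a2 and Matn2, genes of the rule, they were 0.04 and -0.20. Col9a1 had 192, 48, 41.1 and 36.8 CPM, lower in each shSELP library, and was not called. Neural crest and Schwann lineage genes had none called among 13 and medians of -0.12 and -0.03. Matrix, adhesion and invasion genes had none called among 28 and medians of 0.08 and -0.15.

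Imprinted growth genes had 3 of 9 called as higher, Meg3, Ndn and Nnat, beside 1.35% of all tested genes. Meg3 and Ndn were near 0 in shNC and passed the filter through shSELP, so this count is a description. Ndn had 1.61 and 2.42 in shNC 1 and 2 and 32.4 and 36.8 CPM in shSELP 1 and 2, and Nnat 10.3 and 28.7 in shNC 1 and 2 and 247 and 122 in shSELP 1 and 2. Neither had more than 2 UMIs in any restricted library, and neuron and ependymal markers moved with them, as given above. The neuron list itself holds Meg3, which gave 113 of its 135 UMIs in shSELP 1 and 76 of 84 in shSELP 2. Its rise is thus largely that of Meg3 and no separate observation. Without shNC 1 neither stayed called (adjusted p 0.0647 and 0.128), nor did Nnat without shSELP 1 (0.102). H19, a gene of the rule, is described above. The list's median with H19 was 0.28, and 0.13 in the restricted cells. With 1 library left out it was 0.35 to 1.46 and, in the restricted cells, -0.40 to -0.07, so the sign there is not settled. Without H19 the medians were 1.24 and 0.27.

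Hypoxia and glycolysis genes overlapped between the groups in sum. This sum was 8036, 4156, 4389.7 and 6784 CPM in the selected cells and 8062, 3918, 5161 and 7818 in the restricted cells, the highest in shNC 1 in both. The median log2 fold change was -0.47 with none of 24 called, and -0.32 in the restricted cells. Without shNC 1 these medians turned to 0.36 and 0.52. Ddit4, a stress-induced inhibitor of mTOR, had 142, 98.1, 46.1 and 60.9 CPM, and Vegfa, the vessel growth factor, 121, 53.3, 46.1 and 40. Both were lower in each shSELP library, and neither was called. Car9 had 47.4, 14.5, 11.2 and 11.2 CPM and Ero1l 272, 94.9, 97.2 and 163, both named after their values were seen.

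Genes of interferon response and antigen presentation summed to 14986, 26526, 20992 and 28333 CPM, and to 15035, 26448, 25646 and 31628 in the restricted cells. The shNC libraries lay further from each other than the groups did. None of 30 was called, and medians were 0.17 over all selected cells and 0.37 in the restricted cells, where 28 of 30 were higher in shSELP. With shNC 1 left out the restricted median was 0.05, and with shNC 2 left out 0.70. Macrophage markers were higher in shSELP in the same restricted cells, at 1359.8, 2248, 3128 and 3739.8 CPM, with 8 of 8 tested genes higher. Their part was not tested. H2-K1, a class I antigen-presenting molecule, had 1270.3, 2592, 2857 and 3769.8 CPM in the restricted cells, and B2m, its partner chain, 2542, 3798, 4062 and 4442. Both were higher in each shSELP library there.

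Acute-phase and NF-kB target genes had 4 of 28 called as higher, C3, Tnfrsf11b, Vcam1 and Il6, beside 1.35% of all tested genes. Il6 was near 0 in shNC and passed the filter through shSELP. The list's median was 0.41 (0.24 in the restricted cells). Without shNC 1 these medians were 0.18 and -0.07. C3, the central complement protein, had 8.70 and 5.25 in shNC 1 and 2 and 68.5 and 76.9 CPM in shSELP 1 and 2 (log2 fold change 3.24, SE 0.327, adjusted p 0.0149). In the restricted cells it had 2.35, 5.01, 32.9 and 54.6 (3.49, SE 0.478, adjusted p 0.129), with the groups still apart. Cells with Ptprc carried more C3, at 183, 192, 219 and 297 CPM. Tnfrsf11b, a decoy receptor of the TNF family, had 7.74 and 17 in shNC 1 and 2 and 62.3 and 62.5 in shSELP 1 and 2 (adjusted p 0.0469) and 7.71, 17.3, 71.6 and 79.2 in the restricted cells (log2 fold change 2.55, adjusted p 0.133). Vcam1, an adhesion molecule, had 15.8, 39.2, 219 and 135 CPM over all selected cells and 14.7, 39.6, 34.8 and 30 in the restricted cells, where the groups overlapped. Il6 had 0.322, 0.404, 9.97 and 27.2 CPM and only 1 UMI in the restricted cells.

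The calls of Tnfrsf11b and Vcam1 were lost without shNC 1 (0.111 and 0.119) and without shSELP 1 (0.119 and 0.122), and that of Tnfrsf11b also without shSELP 2 (0.0563). Il6 lost its call without shNC 1 (0.366) or shNC 2 (0.181), and without shSELP 2 it fell under the filter. Lcn2, a secreted iron-binding acute-phase protein, differed widely between libraries. Lcn2 had 3.87 and 71.4 in shNC 1 and 2 and 579 and 987 CPM in shSELP 1 and 2 and in the restricted cells 3.69 and 61 in shNC 1 and 2 and 582 and 817 in shSELP 1 and 2. Both sets lay apart by group, with log2 fold changes of 4.33 (SE 1.02) and 4.43 (SE 0.794), and neither was called (adjusted p 0.0925 and 0.241 by edgeR). In dividing tumor cells Lcn2 was called, with a log2 fold change of 4.03 (adjusted p 0.00356). Cells with Ptprc had 8.69, 6.28, 61.1 and 21.3 CPM. Lower in both shSELP libraries in the restricted cells were Tnfaip3, a brake on NF-kB (322, 474, 199 and 150.2), and Socs3, a brake on cytokine signals (398, 299, 106 and 219), neither called by edgeR.

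Immediate early genes, which cells switch on within minutes of a stimulus or of dissociation, leaned lower in shSELP in the restricted cells. Their sum was 15432, 18039.6, 15981 and 13659.5 CPM over all selected cells, where the groups overlapped, and 15257, 18447, 12803 and 12796 CPM in the restricted cells, where 16 of 20 were lower and 9 had an unadjusted p under 0.05 in that direction, with a median of -0.50. Over all selected cells the median was -0.34, with Atf3 called as lower and Klf2, a factor of quiescent endothelium, as higher. Klf2 had 156, 129, 535 and 496 CPM over all selected cells and 137, 131, 172 and 292 in the restricted cells. The call of Klf2 (adjusted p 0.0186) was lost without shSELP 1 (0.0555). Fosl2, a subunit of AP-1, had 131, 92.4, 34.8 and 49.2 CPM in the restricted cells, Klf6 619.8, 680.3, 435 and 257 and Jun 2555, 2996, 1836 and 1929. In all 3 the shSELP libraries were lower, without a call, which is a description only.

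Genes of the unfolded protein response and amino acid stress leaned higher. They summed to 3763, 4974, 6603 and 6808 CPM in the restricted cells, where 14 of 19 were higher and 8 had an unadjusted p under 0.05, with a median of 0.48 (0.28 to 0.72 with 1 library left out). Over all selected cells the median was 0.30, and none of 19 was called in either set. Dnajb9, a chaperone of the endoplasmic reticulum, had 52.6, 41.4, 94.8 and 123 CPM in the restricted cells, Hsp90b1 913, 991, 1354 and 1942 and Pdia4 95.8, 157, 179.9 and 281. Each was higher in both shSELP libraries. Heat-shock genes had 1 of 11 called, Hspb1 (11.6, 3.23, 187 and 114 CPM, adjusted p 0.0245), which had 0.335, 1.37, 3.87 and 0 CPM in the restricted cells. Their medians were 0.37 and 0.08.

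Secreted and surface signals to immune and vessel cells had 5 of 27 called as higher, Ccl7, Cxcl12, Gas6, Mdk and Il34, each under 6 CPM in both shNC libraries and so past the filter through shSELP, with medians of 0.12 and -0.18. Gas6, a ligand of the TAM receptors, had 0.967, 3.23, 78.5 and 32 CPM and no UMI in the restricted cells, and Mdk, the growth factor midkine, had 3.22, 3.63, 64.8 and 32 CPM. Il34, which shares its receptor with CSF1, had 2.90, 4.84, 21.2 and 28.8 CPM and 3.02, 4.55, 3.87 and 5.46 in the restricted cells. Its call was lost with any 1 library left out (adjusted p 0.0883 to 0.259). The calls of Gas6 and Mdk were lost without shNC 1 (0.0938 and 0.0856) and without shSELP 1 (0.0855 and 0.0579). Cd47, which restrains phagocytes, had 256, 306, 462 and 484 CPM in the restricted cells and was not called there. Growth factor receptors had 2 of 20 called, Pdgfrb and Ntrk2 (5.16, 2.02, 76 and 62.5 CPM), and medians of 0.25 and 0.15. P-selectin ligand genes had medians of 0.95 and 0.66 over 5 and 4 tested genes.

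Genes of the cell cycle are bound by the rule and are described only. S phase genes had medians of -0.30 and -0.15, and G2/M genes of -0.18 and 0.00, with none called. Genes of G1, CDK inhibitors and p53 targets had none of 26 called and medians of -0.03 and 0.08. Among them Ccnd2, a cyclin of G1, had 76, 127, 179.9 and 216 CPM in the restricted cells, and Gadd45g, a stress-induced growth brake, 96.5, 61, 23.2 and 13.7. Ccnd2 was higher and Gadd45g lower in both shSELP libraries, without a call by edgeR.

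**Figure D4:**
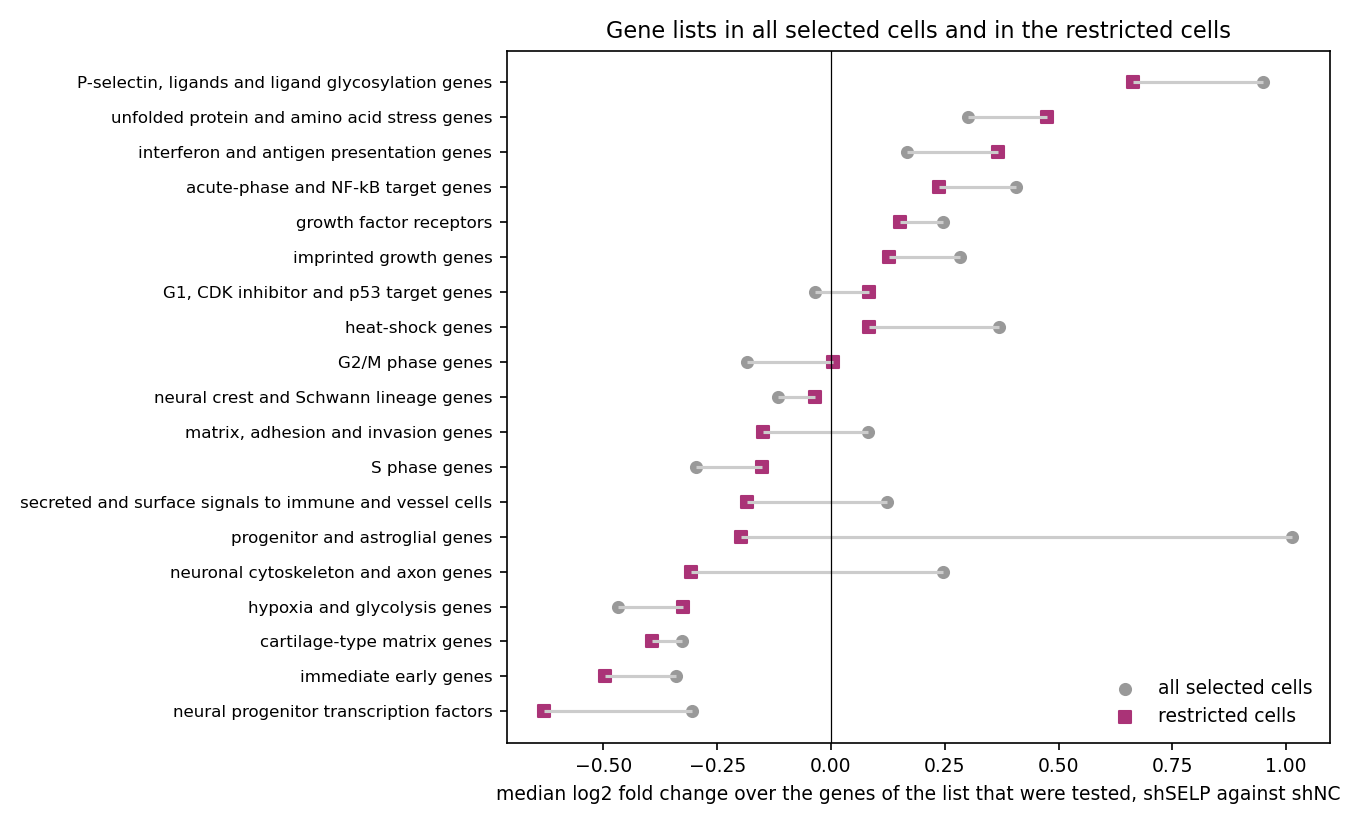
Median log2 fold change of shSELP over shNC (x axis) of the tested genes of 19 gene lists (y axis), over all selected cells and over the restricted cells. The medians of progenitor and astroglial genes part most, at 1.01 and -0.20.

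Whether the response of the selected cells differs from that of other cells was tested as an interaction in edgeR, with the library as a block. Against cells with Ptprc, 108 of 13974 tested genes differed at a Benjamini-Hochberg adjusted p under 0.05 (0.773%), 97 (0.694%) with a higher response and 11 (0.0787%) with a lower one in the selected cells, and 1757 genes (12.6%) had an unadjusted p under 0.05. Of the 108, 57 are among the 142 genes called above. Apoe differed by 2.49 on the log2 scale (SE 0.345), Meg3 by 6.04 and C3 by 2.76, each higher in both shSELP libraries of the selected cells. Atf3 differed by -1.69, Rgcc by -1.58, Enc1 by -1.67 and Arid5a by -1.36, lower in the selected cells. With the restricted cells instead, 83 of 13320 genes differed (0.623%), 40 higher (0.3%) and 43 lower (0.323%), with 1250 (9.38%) at an unadjusted p under 0.05. C3, Atf3 and Rgcc were still among them, while Apoe, Meg3, Enc1 and Arid5a were not. Over all selected cells the number differing was 55 without shNC 1, 498 without shSELP 1 and 487 without shSELP 2.

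Against dividing tumor cells of the same libraries, 124 of 8786 genes differed (1.41%), 104 (1.18%) with a higher and 20 (0.228%) with a lower response in the selected cells. An unadjusted p under 0.05 was seen for 1292 genes (14.7%). The 124 include Apoe (difference 2.79 on the log2 scale, SE 0.394) and Slc1a3 (4.57, SE 0.564), genes that astroglia express, and fewer lower ones such as Rps4x (-0.70). Of the 124, 4 are genes of the rule that chose both sets of cells, so their values are a description. For the restricted cells edgeR called 0 of 7928 genes, with 631 (7.96%) at an unadjusted p under 0.05, and no other tool was run on this comparison. Over all selected cells the number was 61 without shNC 1, 236 without shNC 2 and 224 without shSELP 1. Of the 197 dividing tumor cells, 3 held a Y-linked UMI.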

How the data were processed

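The deposited tables hold raw UMI counts per gene and cell that the authors made with Cell Ranger 1.3 on mm10. Every column was matched to its library by its prefix, and 0 columns stayed unmatched. The 10x single-cell counts of the 4 whole-tumor libraries were used, with the CD11b+ table only searched for cells that meet the rule. Members and gene lists were chosen with earlier results of these data known.

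UMIs of the selected cells were summed per library, 3101854, 2477274, 802563 and 624401. They were tested in R 4.3.3 by the quasi-likelihood F test of edgeR 4.0.16, after filterByExpr and TMM scaling, with Benjamini-Hochberg adjustment over all genes tested and a threshold of 0.05. Interactions added a block for the library. DESeq2 1.42.0 and limma 3.58.1 (limma-trend on the mean of cells) served as alternatives. Scrublet in scanpy 1.11.5 scored doublets at an expected rate of 0.05. Clustering used 2000 variable genes, 12 principal components, 15 neighbours and Leiden at resolution 0.5. Ratios used a pseudocount of 10 CPM, and chromosomes followed GENCODE M21 for genes of at least 20 CPM, with 19998 of 20300 symbols matched. The fits were tested on simulated counts with genes changed by a log2 fold of 2. The main fit called 138 of 184 tested changed genes. The interaction called 75 of 200 against cells with Ptprc and 57 of 177 against dividing tumor cells, so these tests miss many such changes. In each, 3 unchanged genes were called. No simulation was run on the restricted cells. Intervals and floors cover counting error only.

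The named genes are the 10 genes of the rule, Selp and Selplg; in each of 19 lists the 2 with the highest mean CPM and every one at an unadjusted p under 0.05; up to 15 called genes per direction; the 10 of highest mean CPM; and the 15 of largest ratio to other cells among genes of at least 100 CPM in every library. This rule named 176 genes, of which the text gives those that carry a description, and 19 more were chosen after their values were seen. Values of some named genes are not reported here. Alternatives left out each library, changed the normalization, the filter, the marker and division thresholds, the host marker share and the depth, or added a replicate block. The restricted cells, the cells without a Y-linked UMI, those with H19 or Prph and those of at least 5000 UMIs were chosen after seeing the data.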

Additional observations from a re-analysis of the deposited data

Results flagged for a closer look

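The genes of this paragraph were named because a test of the difference itself, the interaction in edgeR, set the response of the selected cells to the Selp hairpin apart from that of cells with Ptprc. Each value is the difference in log2 fold change, selected cells minus cells with Ptprc. The response of the selected cells was higher for Alpl (8.83), Apoe (2.49), C3 (2.76), Ccl7 (4.23), Cd24a (3.04), Col4a1 (3.16), Cxcl1 (4.48), Cxcl12 (9.88), Epas1 (5.94), Fabp7 (2.29), Gas6 (4.32), Hspb1 (3.16), Id2 (1.39), Igfbp3 (7.06), Il6 (4.92), Lrp1 (1.57), Mdk (3.37), Meg3 (6.04) and Pla2g7 (4.08). It was lower for Arid5a (-1.36), Atf3 (-1.69), Enc1 (-1.67) and Rgcc (-1.58). Fabp7 is a gene of the rule, so its value describes the selection. Cxcl12 had no UMI in the selected cells of shNC and Alpl none in those of shNC 1, so these 2 sizes are fitted over counts of 0 and not measured. With the restricted cells, C3 (3.03), Atf3 (-1.58) and Rgcc (-1.13) were still called. The other genes of this paragraph were not called there, and Alpl and Igfbp3 were not tested. Alpl, Col4a1, Cxcl12, Epas1, Gas6, Hspb1, Igfbp3, Il6, Mdk and Meg3 had at most 6 UMIs in the restricted cells of either group, and several marker lists of other cell types were higher in shSELP over all selected cells.

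The same test against dividing tumor cells gave a higher response in the selected cells for Apoe (2.79), Bcan (2.23), Bcas1 (1.87), Bgn (6.32), Btg2 (1.76), Ccl7 (5.73), Cdh11 (5.83), Col1a2 (9.40), Col4a1 (10.03), Cp (1.22), Cst3 (1.55), Cxcl1 (7.09), Cxcl16 (5.59), Dusp1 (1.04), Fabp7 (5.23), Fgfr1 (2.63), Gadd45g (4.27), Gap43 (9.36), Gfap (4.55), Id3 (1.37), Klf2 (2.55), Lsamp (8.75), Malat1 (0.94), Pdgfra (4.92), Ptn (6.26), Ptprz1 (1.80), Rtn1 (5.78), Serping1 (1.98), Slc1a3 (4.57), Tubb4b (1.06) and Vcam1 (5.77). It gave a lower response for Gapdh (-0.95), Prph (-1.15) and Rps4x (-0.70). Bcan, Fabp7, Ptprz1 and Prph are genes of the rule that chose both sets of cells, so their values are a description. Col1a2, Col4a1, Gap43 and Lsamp had no UMI in the dividing cells of shSELP, and Bgn, Cdh11, Cxcl1, Cxcl16, Gfap, Pdgfra, Ptn and Rtn1 none in those of 1 shSELP library. The sizes for these 12 genes are fitted over counts of 0 and are not measured differences. None of these differences from dividing tumor cells was called when edgeR was run on the restricted cells, where 631 genes had an unadjusted p under 0.05 and no other tool was run.

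In the CD11b+ data set, which no comparison here uses, 5 of 2804 shSELP cells met the whole selection rule, above the limit of 3 cells that a count of 0 allows. In shNC 2 of 2731 cells did. Descriptions of 7 sequencing entries of this shSELP library mention the negative control, so the group of the first count is in doubt.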

How the results depend on the processing

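The number of genes called in the selected cells was 142 (136 higher and 6 lower). It was 1296 without the filter on low counts (963 and 333), 288 by DESeq2 (250 and 38), 0 by limma-trend on the mean of cells (1213 at an unadjusted p under 0.05), and 447 with a replicate block that pairs libraries of the same number. With at least 2 markers it was 36, with at least 4 markers 272, without any UMI of Mki67 and Top2a 241, and with cells thinned to 2000 UMIs 22. Leaving out cells with over 1% of UMIs in leukocyte, endothelial, mural, fibroblast and red blood cell markers, as planned beforehand, gave 143. Leaving out 1 library gave 29 to 212, with 127 higher and 50 lower without shNC 2.

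Chosen after seeing the data, cells with H19 or Prph gave 40 calls, cells without a Y-linked UMI 4, the restricted cells 1, cells of at least 5000 UMIs 215, and restricted cells of at least 5000 UMIs 0 by edgeR (783 at an unadjusted p under 0.05). The restricted cells gave 17 by DESeq2 and 4 to 308 with 1 library left out. The difference from cells with Ptprc gave 632 genes without the filter and 55 to 498 with 1 library left out. The difference from dividing tumor cells gave 285 without the filter, 0 by edgeR with the restricted cells (631 at an unadjusted p under 0.05), and 61 to 236 with 1 library left out.

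For the 39 named genes with a call, the direction turned only under alternatives added after seeing the data. The log2 fold change of Bcan, a gene of the rule and so a description, was -0.51 without Y-linked cells, -0.81 in the restricted cells and -0.76 in those of at least 5000 UMIs. Under the same 3 alternatives Gap43 had -0.74, -0.65, -0.54 and Rnd2 -0.23, -0.45, -0.35. Gfap had -0.16 and -0.25 under the last 2 of these, and Clu -0.17 in cells with H19 or Prph. The cause was not tested.

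Over 191 tested named genes and all alternatives, 3220 of 3812 values kept direction and side of the threshold, 207 lost a call, 238 gained one, 135 changed sign with no call in either fit, and 12 changed sign with one. Only 39 of the 191 genes had a call, so most of the 3220 values belong to genes without a call in either fit. The share of selected cells kept its direction under each alternative run for it, which did not include the restricted cells. A mitochondrial limit of 10% and the removal of doublet calls took out no selected cell, so each gave 191 unchanged values. The highest mitochondrial share of a cell with at least 500 genes was 4.9996%, so this limit could not take out any. A block that crosses library numbers was not run. With 2 libraries per group, and fewer UMIs in shSELP, genes at a few CPM cannot be told from 0 there.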
